A study of Xenopus tropicalis with 36 samples.

Results

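*Xenopus tropicalis* embryos injected with morpholinos (MOs) against the *Brachyury* paralogs *t* and *t2* were compared with embryos injected with the same mass of a control MO (cMO) at tailbud stage 26. The comparison covers every row of the count table that names a gene, 25774 in all, in 6 of the 36 libraries of the series. Of these genes, 17987 passed the filter on mean count and could be called. The *t*/*t2* MO embryos received 18 ng of a mixture of 4 MOs at the 1-cell stage, a translation-blocking and a splice-blocking one for each paralog, and the cMO embryos received 18 ng of 1 MO with no intended target. All were wild-type embryos of out-bred frogs. Each group holds 3 libraries, made from the pooled sibling embryos of frog D, E or F, so that *t*/*t2* MO and cMO libraries are paired by clutch. Set beside them were uninjected siblings of the same 3 clutches, the *t*/*t2* MO and cMO embryos of the same clutches at stage 34, and, from 3 other crosses, *t*/*t2* KO embryos carrying frameshift deletions in both paralogs with their wild-type siblings at stage 26.

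Brachyury is a T-box transcription factor of the early mesoderm, the tailbud and the notochord. In vertebrates it keeps posterior mesoderm progenitors supplied while the axis elongates, and its loss truncates the tail and removes notochord and posterior somites. *Xenopus* has the redundant paralogs *t* and *t2*. MOs are synthetic antisense oligomers that block splicing or translation of an RNA without cutting it, so the RNA level of a targeted gene is no direct measure of its protein. The comparison with cMO asks which transcripts differ once both sides have been injected with the same mass of MO. The sides still differ in the number, sequence and content of G and C bases (GC content) of the MOs. They also differ in a sulforhodamine tag that the *t*/*t2* MOs carried and cMO did not. None of these can be told apart from the loss of Brachyury here. In the paper the *t*/*t2* MOs have the higher GC content, and induction of the immune response genes it measured rose with GC content. The tracer injected on its own did not significantly induce those genes there.

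The *t*/*t2* MO libraries held 33954300 to 37193681 gene fragments, and the cMO libraries 31779449 to 42897356. Unaligned reads made up 30.88% to 33.38% of the entries of *t*/*t2* MO and 29.87% to 30.83% of those of cMO libraries. Of 29 measured tissue markers of a tailbud embryo, 27 lay above 3 normalized counts (fragments scaled to a common library size) in cMO embryos. The cMO library of frog D stood apart for *ankrd37*, a gene known as a target of the hypoxia response, with 1285 normalized counts against 52.8 and 53.6 in the cMO libraries of frogs E and F. The root mean square difference in log2 levels averaged 0.677 between *t*/*t2* MO and cMO libraries of the same frog (3 pairs). Between *t*/*t2* MO and cMO libraries of different frogs it averaged 0.762 (6 pairs). Among *t*/*t2* MO libraries it averaged 0.573 and among cMO libraries 0.561, also between different frogs (3 pairs each). A gene was called where edgeR's quasi-likelihood test gave an FDR (adjusted p) of at most 10% and the change was at least 1.5-fold, and each call was repeated under 17 alternative settings or sets of libraries. In total 1798 genes were called, 10% of the 17987, of which 722 (4.01%) were raised and 1076 (5.98%) lowered in *t*/*t2* MO embryos. Changes of at least 4-fold numbered 51 raised and 95 lowered. The filter on mean count did not use *t*/*t2* MO libraries, so it can leave out raised genes more readily than lowered ones. Without it 872 genes were raised and 1104 lowered. Without the cMO library of frog D, 808 genes were raised and 908 lowered, and without frog E 451 were raised and 778 lowered.

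The targeted paralogs both fell, *t2* far more than *t*. On the plus strand of scaffold 5 (assembly v7.1) the gene model of *t* (Xetro.E00956) starts at 72053579 and ends at 72062232, and that of *t2* (Xetro.E00957) starts at 72091808 and ends at 72101743. Normalized counts of *t2* were 59.8, 17.6 and 37.8 in *t*/*t2* MO libraries of frogs D, E and F, against 1632, 1261 and 1208 in cMO and 1489, 1327 and 1299 in uninjected libraries. Its log2 fold change against cMO was -5.13 (SE 0.26, adjusted p = 5.00e-11). For *t* the counts were 582, 513 and 693 in *t*/*t2* MO libraries, against 1430, 978 and 1095 in cMO and 944, 887 and 1033 in uninjected libraries. The *t* transcript thus kept 0.509 of its cMO level (log2 fold change -0.97, SE 0.14, adjusted p = 6.64e-05), with no overlap between the groups. Uninjected embryos lay close to cMO embryos for *t2* and slightly under them for *t*.

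Presomitic mesoderm genes were among those lowered. Of 25 measured genes of presomitic mesoderm and segmentation, 10 were lowered and 0 raised (40.0% called, beside 10% of all genes). Their median log2 fold change was -0.44 against -0.01 over all 17987 genes. In 5 of the 9 alternatives that left out a frog or library 1 was raised. *msgn1* (Xetro.I02074, scaffold 9 from 96833397 to 96834422), a bHLH factor that drives progenitors into the presomitic fate, had 27.9, 12.1 and 18.3 normalized counts in *t*/*t2* MO libraries, against 572, 377 and 443 in cMO libraries. Its log2 fold change was -4.55 (SE 0.29, adjusted p = 1.27e-09). *tbx6*, the T-box factor of paraxial mesoderm, had 221, 258 and 176 in *t*/*t2* MO libraries, against 2716, 2572 and 2218 in cMO libraries. The Notch-dependent oscillator gene *hes7.2* had 119, 72.5 and 64.1 in *t*/*t2* MO libraries, against 663, 420 and 568 in cMO libraries. All 3 genes were thus low in every *t*/*t2* MO library, and their uninjected levels lay close to those with cMO.

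The *mesp* genes, which mark the segment about to form, fell too. *mespa* averaged 121 ± 15.1 normalized counts in *t*/*t2* MO and 405 ± 92.6 in cMO embryos (SD, n = 3 each), *mespb* 31.1 ± 7.93 and 138 ± 28.9, and *mesp2* 7.48 ± 1.30 and 34.2 ± 6.70. *ripply2.2*, which closes the *mesp* phase, averaged 642 ± 42.2 in *t*/*t2* MO and 1362 ± 121 in cMO embryos. The most abundant member that was not called was the receptor gene *notch1*, with a log2 fold change of 0.12 (SE 0.13, adjusted p = 0.63). In the list of tailbud Fgf, Wnt, Cdx and retinoic acid genes, 4 of 25 were lowered and 0 raised, with a median of -0.09. This is 16.0% called, beside 10% of all genes. The lowered ones were the TGF-beta ligand gene *gdf3* (log2 fold change -2.48, SE 0.43), *cdx1* (-0.72, SE 0.21), *fgf20* (-0.68, SE 0.19) and the retinoic acid-degrading enzyme gene *cyp26a1* (-0.66, SE 0.23). Of these, *cyp26a1* overlapped between the groups, and the last 3 were each lost in 4 to 7 of 17 alternatives. Without the cMO library of frog D, without frog D or without the *t*/*t2* MO library of frog E 2 members were lowered, and without frog E 1. Hox cluster genes stayed close to all genes, with 2 of 38 lowered, 0 raised and a median of -0.06, and the lowered ones, 5.26% of the list beside 5.98% of all genes, were *hoxc13* (-1.01, SE 0.22) and *hoxa13* (-0.72, SE 0.24) of the most posterior group. The other measured gene of that group, *hoxd13*, was not called (0.21, SE 0.18, adjusted p = 0.56). The *hoxa13* call was lost in 7 of 17 alternatives, among them those without the cMO library of frog D and without frog E (adjusted p up to 0.326).

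**Figure D1:**
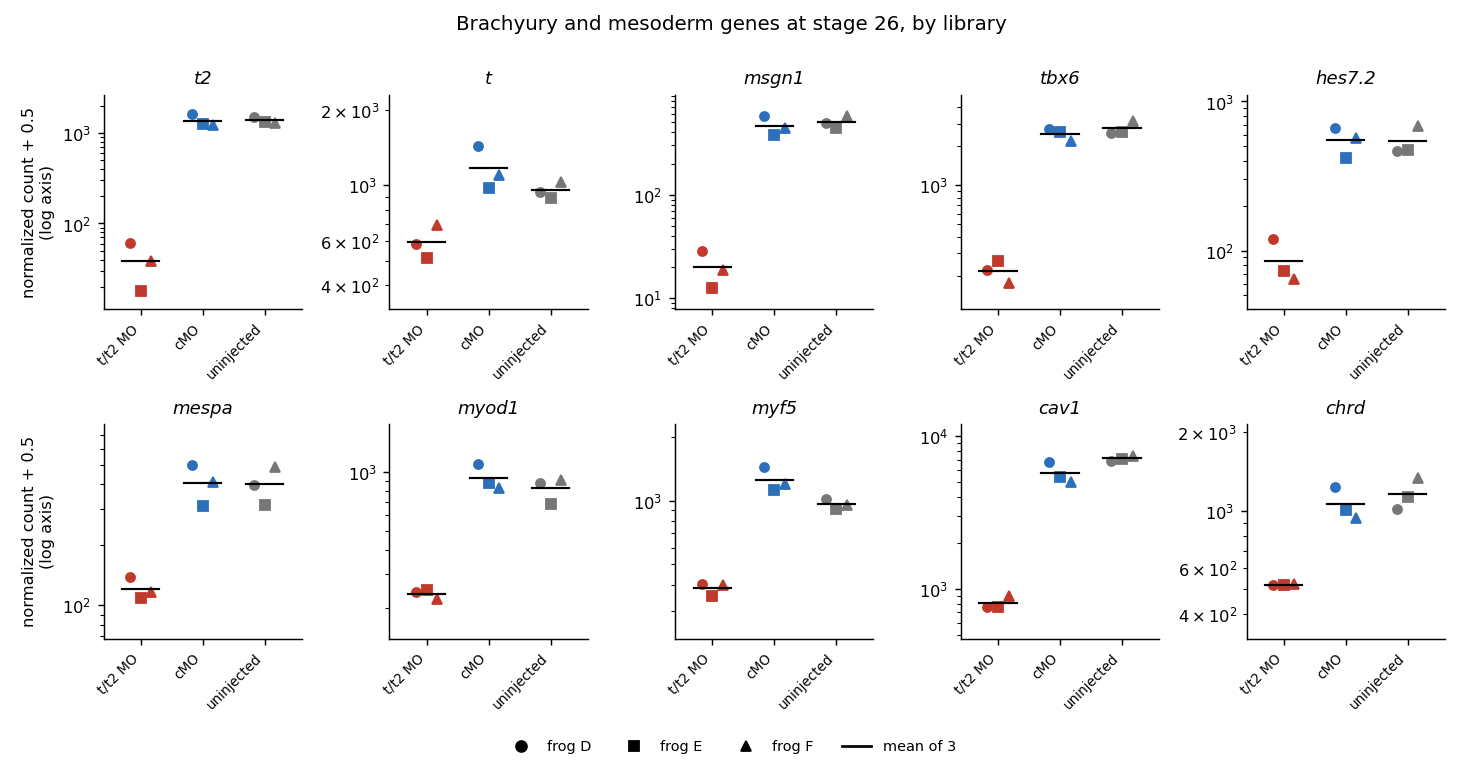
Normalized counts plus 0.5 (log axis) of the targeted paralogs and of genes of presomitic mesoderm, muscle and notochord at stage 26. Each point is 1 library, shapes give the frog and lines the mean of 3. In all 10 genes the 3 *t*/*t2* MO libraries lie below the 3 cMO and the 3 uninjected libraries, with *t2* and *msgn1* furthest apart.

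Some notochord genes were nearly absent and others changed little. Of 20 measured genes of notochord, floor plate and hedgehog signalling, 5 were lowered and 1 raised (30.0% called, beside 10% of all genes). The keratin-like gene *krt18l* (Xetro.K01247, scaffold 87 from 55310 to 65733) had 0, 2 and 1 fragments in *t*/*t2* MO libraries, and normalized counts of 528, 406 and 208 in cMO libraries. With 3 fragments in all *t*/*t2* MO and 1107 in all cMO libraries, the cMO level was 361 times the *t*/*t2* MO level (95% exact interval 123 to 1750, counting error only). The collagen gene *col9a1* had 2 fragments in the *t*/*t2* MO and 47 in the cMO libraries, a ratio of cMO to *t*/*t2* MO of 23.0 (95% exact interval 6.01 to 195). *cav1*, a caveolin of the vacuolated notochord cell, had 753, 763 and 893 normalized counts in *t*/*t2* MO libraries, against 6780, 5373 and 4984 in cMO libraries (log2 fold change -2.83, SE 0.13, adjusted p = 1.19e-11). *chrd*, encoding the BMP antagonist Chordin, averaged 519 ± 3.37 in *t*/*t2* MO and 1058 ± 154 in cMO embryos (SD, n = 3 each). The axial signal gene *shh* (-0.17, adjusted p = 0.467) and the notochord marker *col2a1* (-0.47, adjusted p = 0.085) were nearer to 0, and neither was called. For *col2a1* the adjusted p passed the FDR threshold, and only the size of the change, under 1.5-fold, kept it from being called. The hedgehog ligand gene *ihh* was the raised member, with 61.8, 56.0 and 73.3 in *t*/*t2* MO libraries, against 26.3, 11.1 and 19.3 in cMO libraries. In pooled whole embryos, fewer cells of a type and less RNA per cell cannot be told apart.

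Skeletal muscle was the list with most members lowered. Of 38 measured muscle genes, 29 were lowered and 2 raised (81.6% called, beside 10% of all genes), with a median log2 fold change of -0.84. The myogenic factors *myod1* and *myf5* were both lowered. *myod1* had 242, 246 and 222 normalized counts in *t*/*t2* MO libraries, against 1102, 882 and 827 in cMO libraries (log2 fold change -1.99, SE 0.17, adjusted p = 7.33e-08). *myf5* had 401, 355 and 400 in *t*/*t2* MO libraries, against 1437, 1118 and 1195 in cMO libraries (-1.70, SE 0.11, adjusted p = 1.67e-09). Neither factor overlapped between the groups. Genes of membrane and excitation fell as well, with the caveolin gene *cav3.2* at -2.93 (SE 0.24) and the calcium channel gene *cacna1s* at -1.90 (SE 0.14), both in gene models that overlap a neighbour. Contractile genes kept large levels. The fast myosin gene *myh4* had 98350, 74530 and 66700 in *t*/*t2* MO libraries, against 192200, 187300 and 159600 in cMO libraries, and *actc1*, the cardiac actin that the embryo also uses in somites, averaged 85768 in *t*/*t2* MO and 166620 in cMO embryos. The glycolytic gene *gapdh*, on the list of 10 reference genes, was lowered too (-0.73, SE 0.12), and the other 9 were not called. Of the raised members, *acta1* (1.28, SE 0.48) overlapped between the groups and was lost in 8 of 17 alternatives, among them those without the cMO library of frog D and without that of frog F (adjusted p up to 0.333).

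The 10 deepest falls among abundant genes with a symbol included, besides *t2*, *krt18l* and *msgn1*, genes outside the lists. *avpr1a* (Xetro.C01594, scaffold 3), a vasopressin receptor, had 6.98, 5.49 and 9.16 normalized counts in *t*/*t2* MO libraries, against 1615, 642 and 762 in cMO libraries (log2 fold change -7.11, SE 0.41). The genes of extracellular matrix in this group were *emilin3* (-5.47, SE 0.25), the collagen-crosslinking enzyme gene *lox* (-4.86, SE 0.28) and *chadl* (-5.06, SE 0.24). *emilin3* had 141, 202 and 148 in *t*/*t2* MO libraries, against 9479, 7003 and 5256 in cMO libraries. *ankrd63* (-4.79), *c8orf84* (-4.77) and *c6orf192* (-4.31) completed the 10. None of these genes overlapped between the groups, and their calls held in all 17 alternatives. They were picked from these same libraries as called genes with the same sign in 3 frogs, so neither point is independent support. A panel of 16 core network genes, which the study chose on these samples and which is not independent evidence of direction, had 16 lowered and 0 raised.

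The lists of other tissues had from 0% (neural crest) to 14.7% (neural) of their genes called, beside 10% of all genes. Of 34 neural genes 3 were raised and 2 lowered, with the transcription factor genes *olig4* (0.68, SE 0.21), *tlx3* (0.68, SE 0.14) and *isl2* (0.66, SE 0.20) raised and *pax7* (-1.06, SE 0.33) and *mnx1* (-0.85, SE 0.27) lowered. The *mnx1* call was lost without the cMO library of frog D (adjusted p up to 0.473 over the alternatives), which held 915 normalized counts beside 424 and 390 in the other cMO libraries. Calls of *pax7* and *olig4* were lost without frog E and without frog F. In the neural list 0 genes were raised without frog E, and 0 were lowered without the *t*/*t2* MO library of frog E or of frog F. Of 11 neural crest genes 0 were called by edgeR's quasi-likelihood test and 0 by DESeq2, with 5 at an unadjusted p under 0.05. Over the 17 alternatives 0 to 2 of them were lowered and 0 to 1 raised. Of 15 heart genes 1 was raised, the T-box gene *tbx20*, which averaged 1122 ± 120 in *t*/*t2* MO and 664 ± 55.0 in cMO embryos (SD, n = 3 each). Without the cMO library of frog D 4 were raised, and without frog D 5. The median of the heart list was 0.37, and 14 of the 15 log2 fold changes were positive. Among members kept from a call only by a change under 1.5-fold were *hand1* (0.56, SE 0.09), *hand2* (0.51, SE 0.10), *nkx2-5* (0.49, SE 0.15) and *isl1* (0.38, SE 0.11). Of 17 blood and endothelial genes 1 was lowered, the globin gene *hba1*, and of 18 epidermal and multiciliated cell genes 1 was lowered, the keratin gene *krt15*. The *hba1* call was lost in 5 of 17 alternatives, among them those without the cMO library of frog D, without the *t*/*t2* MO library of frog E or of frog F, and without frog E. The *krt15* call was lost in 8 of 17, among them those without any 1 of the *t*/*t2* MO libraries. Of 14 pronephric genes 1 was raised and 1 lowered, and 0 were raised without frog E or without the cMO library of frog F. Of 14 endoderm and liver genes 2 were lowered, *darmin* (-1.03, SE 0.13) and the apolipoprotein gene *apoa1* (-1.14, SE 0.26).

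**Figure D2:**
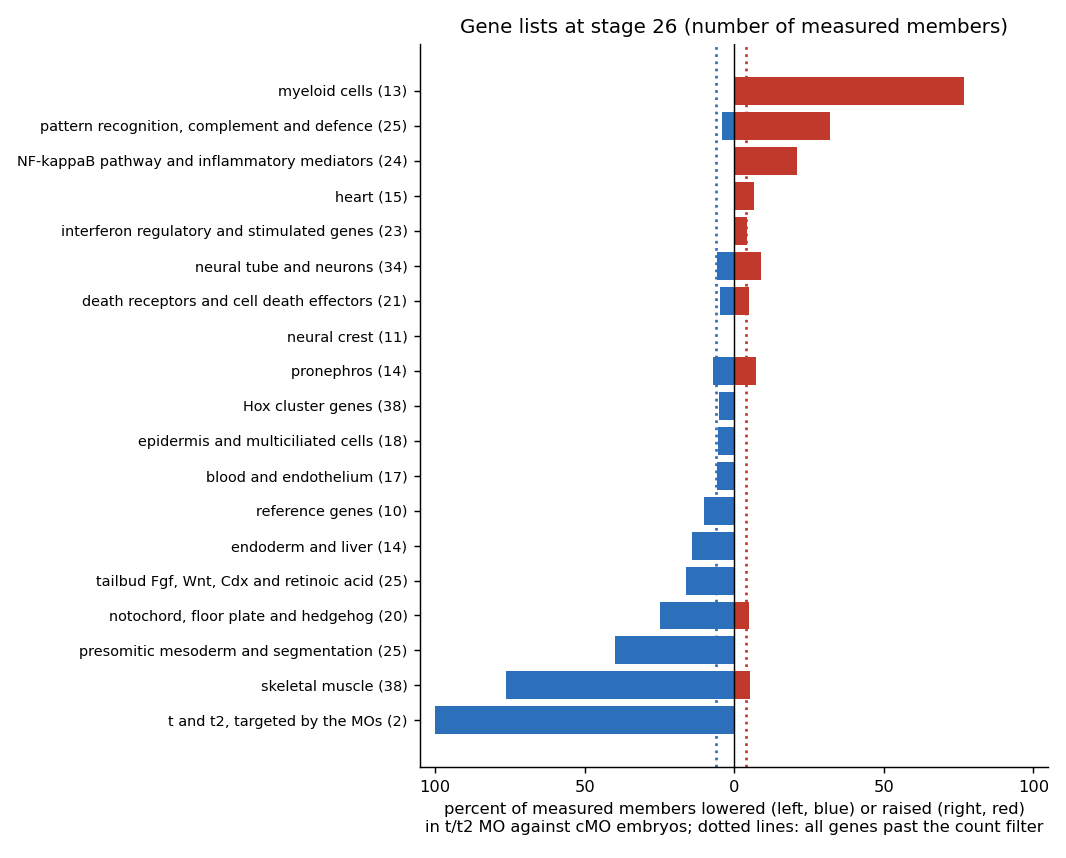
Share of the measured members of each gene list shown that were lowered (left) or raised (right) in *t*/*t2* MO against cMO embryos at stage 26, in percent. Dotted lines give the share among all 17987 genes, 5.98% lowered and 4.01% raised. Skeletal muscle and presomitic mesoderm extend furthest to the left after the targeted paralogs, and myeloid genes furthest to the right.

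The raised genes were read beside the uninjected embryos, which give the level of each gene without any MO. Against uninjected embryos *t*/*t2* MOs changed 2007 genes (11.2%) and cMO changed 126 (0.701%). With the clutch as a block, the second count was 253. These comparisons share libraries with the one against cMO, so their values are only set side by side. Of the 722 genes raised against cMO, 419 were also raised against uninjected embryos, 301 were not called there and 2 were lowered. The mean of uninjected embryos lay below that of cMO in 252 of the 722 genes, between cMO and *t*/*t2* MO in 435, and above that of *t*/*t2* MO in 35. Called as changed by cMO itself were 62 of them, 20 raised and 42 lowered. Of the 1076 lowered genes, 859 were also lowered against uninjected embryos, and cMO raised 5 and lowered 1 of them.

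The list of cell death genes stayed near the share of all genes. Of 21 genes of death receptors and cell death effectors, 1 was raised (*casp10*, 0.68, SE 0.16) and 1 lowered (*tradd*, -0.84, SE 0.13). The *casp10* call was lost without the *t*/*t2* MO library of frog F, where 0 were raised, and 2 were raised in 9 other alternatives. Outside that list, *ccng1*, *plk2*, *fas* and *aen* were raised and are given as single genes, with no count of a group behind them. The mean of each was highest in *t*/*t2* MO, intermediate in cMO and lowest in uninjected embryos. The cyclin G gene *ccng1* had 25440, 25990 and 28970 normalized counts in *t*/*t2* MO libraries, 9064, 13400 and 15500 in cMO and 6271, 5976 and 7027 in uninjected libraries (log2 fold change against cMO 1.08, SE 0.14, adjusted p = 2.57e-05). The kinase gene *plk2* had 5104, 4550 and 4838 in *t*/*t2* MO, 1795, 2303 and 2730 in cMO and 1269, 1277 and 1448 in uninjected libraries. The libraries of these genes fell into 3 groups without overlap. The death receptor gene *fas* averaged 519 in *t*/*t2* MO, 250 in cMO and 175 in uninjected embryos. The nuclease gene *aen* (log2 fold change 0.76, SE 0.16) was not called without the cMO library of frog D or without frog D. The cyclin-dependent kinase inhibitor gene *cdkn1a* was nearer to 0, at 0.21 (SE 0.07), and was not called. A further gene of such an inhibitor, *cdkn2b*, was among the 10 largest rises (2.28, SE 0.31), with 97.7, 102 and 133 in *t*/*t2* MO, 18.1, 22.1 and 27.9 in cMO and 7.36, 3.27 and 8.93 in uninjected libraries.

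More inflammatory genes were raised against uninjected than against cMO embryos. Of 24 measured genes of the NF-kappaB pathway and of inflammatory mediators, 5 were raised and 0 lowered against cMO. Against uninjected embryos *t*/*t2* MOs raised 16 of the 24 and cMO raised 6. Over all 17987 genes, 722 were raised against cMO, and against uninjected embryos *t*/*t2* MOs raised 769 and cMO 53. The cytokine gene *lif* averaged 96.1 ± 8.08 normalized counts in *t*/*t2* MO, 34.4 ± 17.6 in cMO and 6.22 ± 1.62 in uninjected embryos (SD, n = 3 each). The collagenase gene *mmp1* had 194, 353 and 416 in *t*/*t2* MO libraries, against 101, 89.7 and 112 in cMO libraries. The feedback inhibitor gene *socs3* was raised (1.30, SE 0.30) but overlapped between the groups, with 562 in the *t*/*t2* MO library of frog E, and its call was lost without frog E. *mmp9* (1.12, SE 0.42, adjusted p = 0.0983) overlapped as well and was lost in 8 of 17 alternatives. The members that were not called varied. The chemokine gene *ccl4* averaged 181 in *t*/*t2* MO, 184 in cMO and 16.4 in uninjected embryos (log2 fold change against cMO -0.05, SE 0.50). *tnfaip2* averaged 1391 in *t*/*t2* MO and 626 in cMO embryos (1.14, SE 0.59, adjusted p = 0.26). For *il1r2* the means were 1632 and 743 (1.14, SE 0.52, adjusted p = 0.19). Of the 24 members, 20 had a positive log2 fold change against cMO, with a median of 0.45. The transcription factor gene *rela* (0.20, SE 0.09) was the most abundant member that was not called. The count of the list depended on frog and library, with 9 raised without the cMO library of frog D, 11 without frog D, 3 without the *t*/*t2* MO library of frog E and 2 without frog E. Of 23 interferon regulatory and stimulated genes 1 was raised, *irf1*, with 697, 757 and 480 in *t*/*t2* MO libraries, against 464, 270 and 223 in cMO libraries, a call lost without frog E. A panel of 17 immune response genes that the study chose on these samples, and that is not independent evidence of direction, had 9 raised and 0 lowered against cMO, and 16 raised against uninjected embryos.

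Among 25 genes of pattern recognition, complement and defence, 8 were raised and 1 lowered, and their levels in uninjected embryos differed. The complement receptor gene *c3ar1* was lowest in uninjected embryos, with 1699, 1526 and 2300 normalized counts in *t*/*t2* MO, 324, 700 and 566 in cMO and 202, 77.4 and 211 in uninjected libraries (3.49-fold against cMO, adjusted p = 7.54e-04). The ubiquitin ligase gene *march8* did likewise, averaging 718, 274 and 156 in that order. By contrast, *c8a*, a component of the membrane attack complex, had 7638, 6470 and 5409 in *t*/*t2* MO, 2603, 2541 and 2401 in cMO and 7002, 6676 and 6859 in uninjected libraries. Its rise against cMO (1.37, SE 0.14, adjusted p = 8.17e-07) thus stood beside a fall of cMO against uninjected embryos by 1.44 on the log2 scale. *irak4*, a kinase of Toll-like receptor signalling, had 329, 286 and 300 in *t*/*t2* MO, 123, 120 and 150 in cMO and 460, 262 and 358 in uninjected libraries. The thymidylate kinase gene *dtymk*, which the study chose on these samples as a case of MO off-target splicing, was likewise lowest with cMO, averaging 1543 ± 210 in *t*/*t2* MO, 735 ± 106 in cMO and 2142 ± 166 in uninjected embryos (SD, n = 3 each). The purine synthesis gene *adsl* was low in both injected groups, at 287 ± 45.8 in *t*/*t2* MO and 266 ± 40.2 in cMO embryos beside 1169 ± 114 in uninjected ones, so that the comparison with cMO did not show it (0.11, SE 0.18, adjusted p = 0.80). In KO embryos *adsl* was lowered too, at -0.68 against wild-type siblings. Another off-target case of the study, *abi1*, was not called (0.22, SE 0.07). Fragment counts per gene do not measure splicing, and the paper reports that the *abi1* transcript level changed little.

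Genes of myeloid cells, the phagocytes that a tailbud embryo already holds, were mostly raised against cMO. Of 13 measured members 10 were raised and 0 lowered (76.9% called, beside 10% of all genes), with a median log2 fold change of 0.87. Against uninjected embryos *t*/*t2* MOs raised 4 and lowered 1 of them, with a median of 0.25, and the median of cMO against uninjected embryos was -0.45, with 1 lowered. The ETS factor gene *spib* had 2719, 2024 and 2250 normalized counts in *t*/*t2* MO, 1440, 952 and 835 in cMO and 1676, 1284 and 1396 in uninjected libraries. The myeloperoxidase gene *mpo* averaged 11074 in *t*/*t2* MO, 6165 in cMO and 10377 in uninjected embryos, and *lcp1*, an actin-bundling protein gene of leukocytes, 3514, 1925 and 3185 in that order. *cebpe*, a granulocyte factor gene, had 106, 102 and 71.0 in *t*/*t2* MO, 40.8, 44.2 and 37.5 in cMO and 81.0, 52.4 and 46.6 in uninjected libraries. The oxidase subunit gene *ncf4* differed from these in that *t*/*t2* MO embryos (248 ± 55.3) were above cMO (106 ± 60.6) and uninjected embryos (98.7 ± 27.0, SD, n = 3 each), whose values overlapped. Without frog E, or without the *t*/*t2* MO library of frog D, 6 members were raised. The receptor gene *csf3r* overlapped between the groups and was lost in 6 of 17 alternatives.

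**Figure D3:**
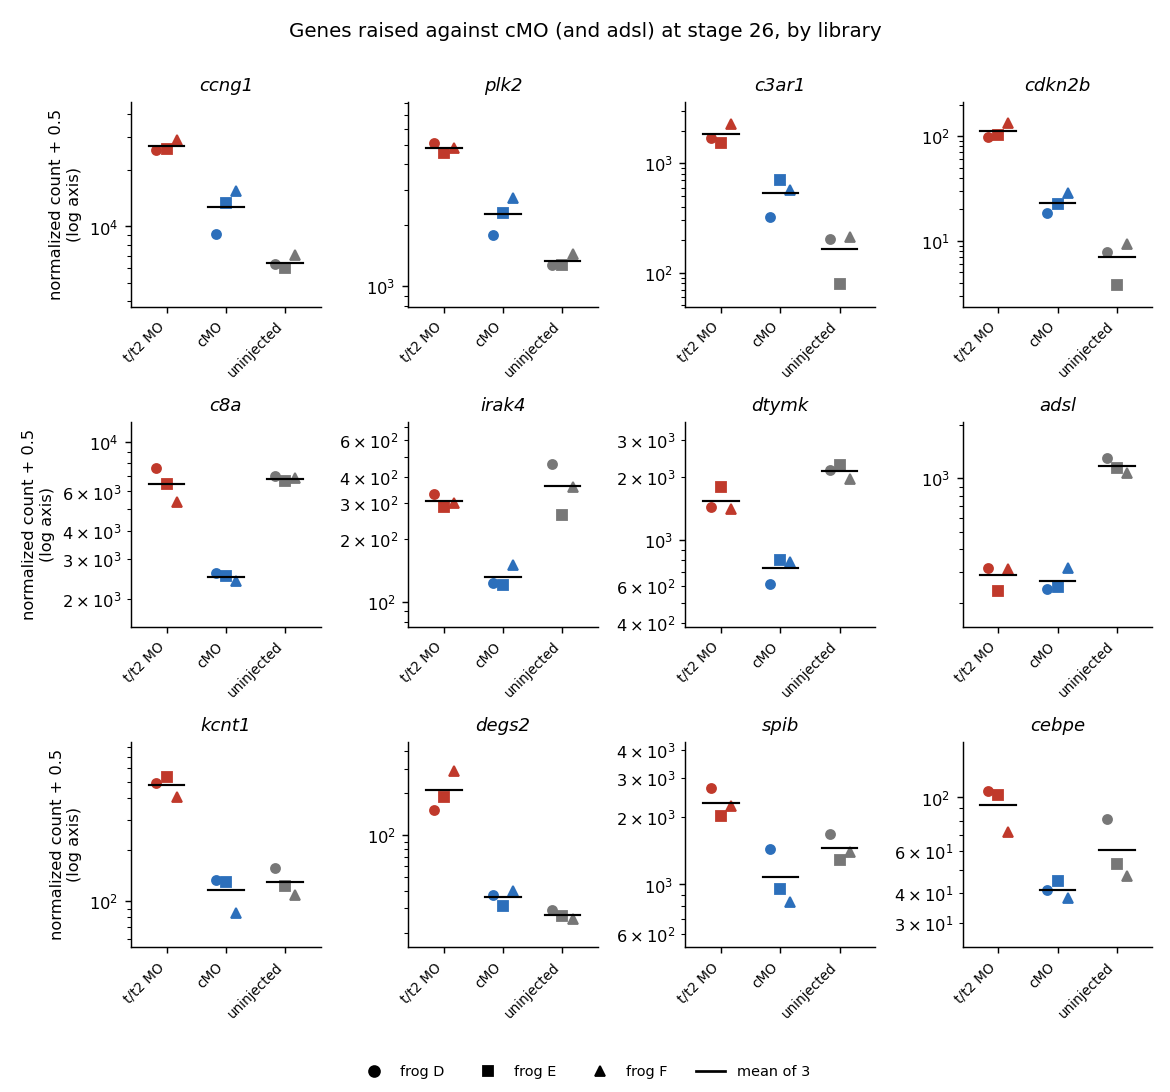
Normalized counts plus 0.5 (log axis) of genes raised against cMO, and of *adsl*, in *t*/*t2* MO, cMO and uninjected libraries at stage 26 (shapes give the frog, lines the mean of 3). *ccng1*, *plk2*, *c3ar1* and *cdkn2b* are highest in *t*/*t2* MO and lowest in uninjected libraries. *c8a*, *irak4* and *dtymk* are lowest in cMO libraries, *adsl* is low in both injected groups, and *kcnt1* and *degs2* are high in *t*/*t2* MO libraries alone. In *spib* and *cebpe* the cMO mean lies under the uninjected mean.

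Of the 10 largest rises among abundant genes with a symbol, cMO against uninjected embryos was called for *cdkn2b*, raised, and *reg4*, lowered, and not for the others. *kcnt1* (Xetro.K00280, scaffold 24), a sodium-activated potassium channel gene, had 493, 534 and 409 normalized counts in *t*/*t2* MO, 132, 128 and 84.7 in cMO and 155, 121 and 107 in uninjected libraries (log2 fold change against cMO 2.06, SE 0.22, adjusted p = 1.91e-06). The sphingolipid desaturase gene *degs2* had 151, 187 and 289 in *t*/*t2* MO, 37.2, 30.7 and 39.7 in cMO and 28.5, 26.2 and 24.8 in uninjected libraries. The gluconeogenic gene *fbp2* averaged 234, 35.6 and 27.8 in the same order, and *ascl3*, encoding a bHLH factor, 96.8, 22.8 and 16.4. The heme-binding protein gene *hebp2* varied widely between frogs, with 721, 1944 and 3223 in *t*/*t2* MO libraries, against 123, 249 and 209 in cMO libraries (3.34, SE 0.35). *cfhr2*, whose model overlaps another gene, varied more widely still, with 70.8, 146 and 581 in *t*/*t2* MO libraries, against 7.25, 4.91 and 23.6 in cMO libraries. The cMO mean lay below that of uninjected embryos for 3 more, with *reg4*, a secreted lectin gene, at 203, 37.9 and 132 in *t*/*t2* MO, cMO and uninjected embryos, the matrix metalloprotease gene *mmp7* at 1136, 257 and 536, and the urea cycle gene *cps1*, whose model overlaps another, at 102, 11.4 and 33.3. All 10 were called in every one of the 17 alternatives. These genes were likewise picked as called in the same libraries, so this is not independent support.

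The KO embryos shared no library with the knockdown. Against wild-type siblings 451 genes were called in *t*/*t2* KO embryos (2.51%), 430 of them lowered and 21 raised. Of the 1076 genes lowered by *t*/*t2* MOs against cMO, 333 were lowered and 0 raised in KO embryos, and of the 722 raised, 8 were raised and 0 lowered. By list, KO lowered 30 of the 38 muscle genes, 9 of the 25 presomitic genes and 4 of the 20 notochord genes, and called 0 of 13 myeloid and 0 of 24 NF-kappaB and inflammatory genes by edgeR's test, with 1 and 0 of them at an unadjusted p under 0.05. *krt18l* had 2.03, 5.83 and 9.62 normalized counts in KO libraries of crosses 1, 2 and 9, against 733, 1032 and 550 in wild-type libraries, and *msgn1* 12.2, 0.97 and 0 against 371, 299 and 268. *kcnt1* had 107, 109 and 137 in KO libraries, against 118, 157 and 141 in wild-type libraries.

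The difference between the knockdown effect against cMO and the KO effect against wild-type was tested in a joint fit, and 482 genes (2.68%) passed. It was positive in 226 of them, among which were 178 of the 722 raised genes. It was negative in 256, among which were 212 of the 1076 lowered genes. The difference contains the effect against cMO by which these genes were picked, so the shared signs are not independent support. The paralogs fell less by knockdown than by KO, with a difference of 1.70 (SE 0.23) for *t* and 3.37 (SE 0.53) for *t2* on the log2 scale. Among genes with a symbol and a mean of at least 50 normalized counts, the largest positive differences beside that of *t2* were those of *fbp2* (3.40, SE 0.59) and *cdkn2b* (3.23, SE 0.82). The difference was also positive for the cell cycle genes *ccng1* (1.66), *plk2* (1.27) and *cdkn1a* (0.82). The calls of *ccng1* and *cdkn1a* were each lost in 5 of 12 alternatives, and that of *cdkn2b* in 4. For these 3 genes they included leaving out any 1 frog. Each difference also takes in the KO effect, so it is not the size of a rise against cMO, where *cdkn1a* was not called. *hoxc13* and *hoxa13* fell more in KO embryos (differences 1.40 and 1.64). The purine nucleoside phosphorylase gene *pnp* was lowered with *t*/*t2* MOs and not called in KO embryos, with 1914, 1209 and 958 in *t*/*t2* MO libraries, against 7980, 6385 and 5199 in cMO libraries, and with 6286, 6772 and 5874 in KO libraries, against 9277, 8059 and 6555 in wild-type libraries (difference -1.92, SE 0.25, adjusted p = 8.50e-06). *psmf1*, a proteasome inhibitor gene, had 55.9, 63.7 and 63.0 in *t*/*t2* MO libraries, against 214, 184 and 208 in cMO libraries, while KO libraries had 232, 204 and 173, against 152, 189 and 170 in wild-type libraries (difference -1.98, SE 0.36). The negative difference of *nt5dc1* (-1.90, SE 0.57) stood beside a rise in KO embryos, with 270, 483 and 306 in KO and 79.2, 118 and 73.7 in wild-type libraries, and was lost in 8 of 12 alternatives. Frogs, crosses and handling differ between the experiments and cannot be told apart from the way Brachyury was removed. Without frog E 222 genes passed, without frog F 241, and with the clutch or cross as a block 872.

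**Figure D4:**
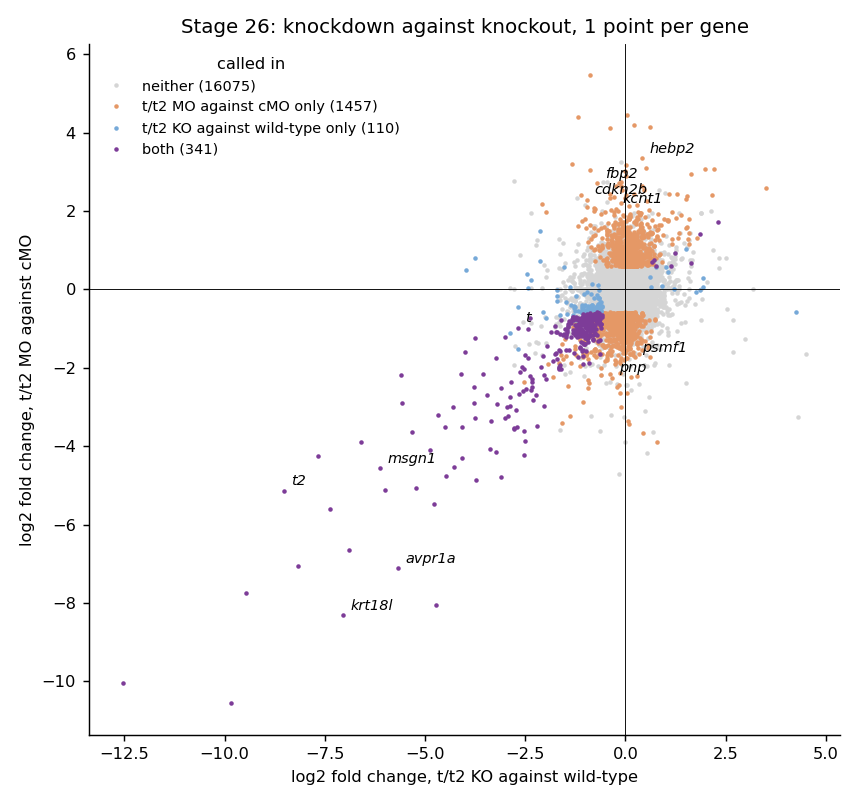
Log2 fold changes of *t*/*t2* MO against cMO (vertical axis) and of *t*/*t2* KO against wild-type embryos (horizontal axis) at stage 26, 1 point per gene, coloured by the comparison that called it. The fitted values of genes with counts near 0, at the far lower left, depend on the fit. Genes called in both (341) lie mostly at the lower left, whereas *hebp2*, *fbp2*, *cdkn2b* and *kcnt1* lie high and *pnp* and *psmf1* low without being called in KO embryos.

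From stage 26 to stage 34 the *t*/*t2* MO effect against cMO differed in 660 genes (3.67%), 378 with a higher and 282 with a lower log2 fold change at stage 34. This count was 73 without frog E, 231 without frog F and 1229 with the clutch as a block. Of the 1076 genes lowered at stage 26, 98 had a higher and 35 a lower value at stage 34. Of the 722 raised, 3 had a higher and 51 a lower value. The stage difference subtracts the stage 26 effect by which these genes were picked. Genes picked as extreme at stage 26 thus lean towards a difference of the opposite sign. No fading of the effect with stage can be read from these counts. The same limit holds for the deepest falls at stage 26, several of which were shallower later. *avpr1a* had 18.6, 19.5 and 10.8 normalized counts in *t*/*t2* MO libraries at stage 34, against 49.5, 77.6 and 65.4 in cMO libraries, all under the cMO libraries of stage 26 (stage difference 5.12, SE 0.63, adjusted p = 4.25e-04). *emilin3* (2.38), *chadl* (2.76) and *ankrd63* (3.63) had positive differences as well. In uninjected embryos the log2 change from stage 26 to stage 34 was -4.05 (SE 0.31) for *avpr1a*, -2.45 (SE 0.21) for *emilin3* and -0.45 (SE 0.17) for *chadl*. Whether this change with stage bears on their shallower falls was not tested. In the muscle list 7 of 38 genes had a lower and 2 a higher value at stage 34, and *myh4* had 26620, 32090 and 30190 in *t*/*t2* MO libraries at stage 34, against 159200, 139200 and 131300 in cMO libraries (stage difference -1.14, SE 0.19). The desmin paralog *des.2* overlapped between the groups at stage 26 (0.41, SE 0.33) and had a stage difference of -5.35 (SE 0.42). Of the 25 genes of presomitic mesoderm and segmentation, 3 had a lower and 2 a higher value at stage 34. Among the lower ones, *mespb* had 0, 0 and 1.08 at stage 34 in *t*/*t2* MO libraries, against 16.5, 18.4 and 14.2 in cMO libraries, and its stage difference (-3.06, SE 0.78) was lost when any 1 frog was left out.

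The rise of *hebp2* was not seen at stage 34, when it had 2204, 2525 and 2498 normalized counts in *t*/*t2* MO libraries, against 2444, 2734 and 2475 in cMO libraries (stage difference -3.47, SE 0.46, adjusted p = 7.62e-04). *rgn*, encoding the calcium-binding protein regucalcin, had a difference of -3.02 (SE 0.51). Both genes rose with stage in uninjected embryos, by 3.70 (SE 0.36) and 3.98 (SE 0.41) on the log2 scale. A comparison of stages in uninjected embryos, added after the data were seen, put the other genes beside these. Of the 722 genes raised against cMO, 167 (23.1%) were higher at stage 34 than at stage 26 in uninjected embryos. Of the 1076 lowered against cMO, 236 (21.9%) were higher, against 19.9% of all genes. Lower at stage 34 were 139 of the raised (19.3%) and 228 of the lowered genes (21.2%), against 12% of all genes. Among genes with a symbol and a mean of at least 50 normalized counts, the largest positive stage differences besides that of *avpr1a* were those of the hypoxia-response genes *ankrd37* (5.95, SE 1.47) and *egln3* (3.76, SE 1.07), in which *t*/*t2* MO and cMO libraries overlapped at stage 26. At stage 26 *egln3* had 415, 174 and 81.3 in *t*/*t2* MO libraries, against 1075, 86.0 and 155 in cMO libraries, highest in the frog D library of both groups. At stage 34 the frog E library of *t*/*t2* MO embryos was highest, with 1232 of *ankrd37*. Leaving out either frog E or frog F ended both calls.

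**Figure D5:**
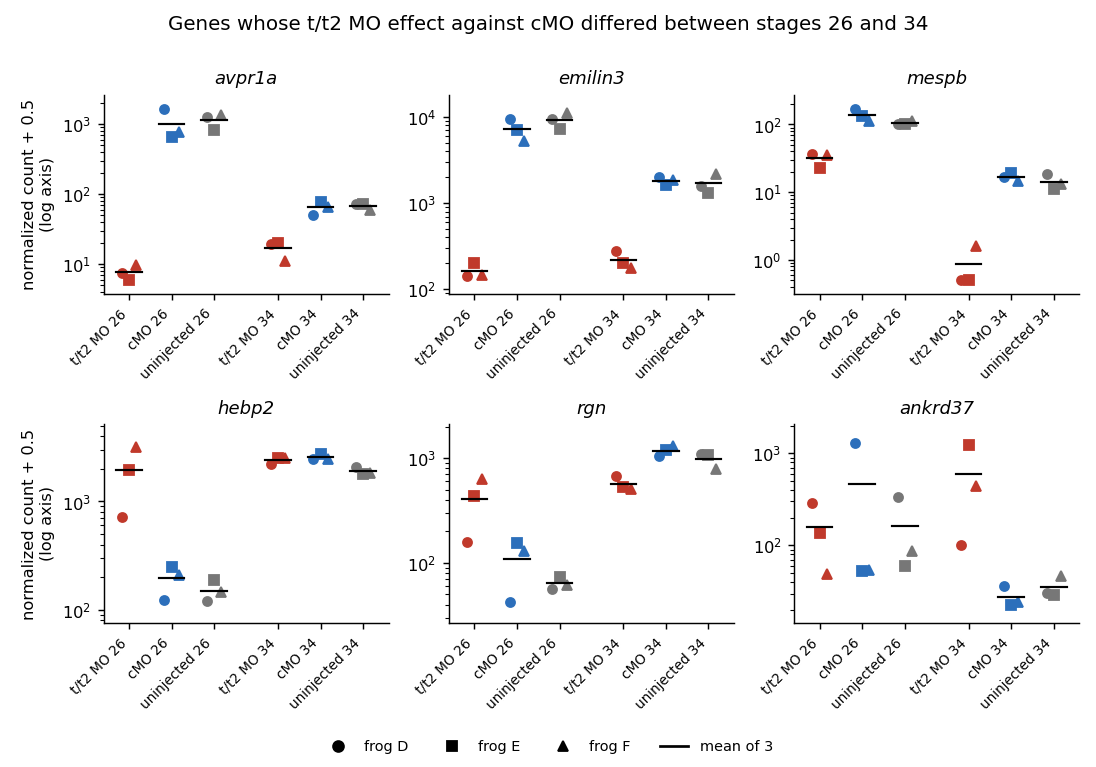
Normalized counts plus 0.5 (log axis) at stages 26 and 34 of 6 genes whose *t*/*t2* MO effect against cMO differed between the stages (shapes give the frog, lines the mean of 3). *avpr1a* and *emilin3* have lower cMO levels at stage 34, *hebp2* and *rgn* are higher at stage 34 in cMO and uninjected libraries, and *ankrd37* is spread widely between frogs.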

How the data were processed

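Libraries of poly(A) RNA from whole embryos were sequenced as paired reads. The authors aligned them to *X. tropicalis* gene models of assembly v7.1 and deposited raw fragment counts per gene, without normalization, for which only read pairs aligning to a single gene were kept. The labels' processing notes list CASAVA 1.8.2, Bowtie2 2.1.0, TopHat2 2.0.10 and DESeq2. The library kit does not mark strand, so overlapping gene models cannot be told apart. The 3 entries that name no gene (unaligned, ribosomal and mitochondrial reads) held 30.15% to 33.64% of all entries in the 6 libraries compared and were left out.

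Counts were fitted with edgeR 4.0.16 (TMM, quasi-likelihood test, R 4.3.3) over the 18 KD libraries in 6 groups of stage and condition, with Benjamini-Hochberg adjustment over 25209 genes. Printed normalized counts were scaled by TMM over all 36 libraries. The SE given with a log2 fold change is its absolute value divided by the square root of the test's F statistic. It is thus derived from the test and is not a standard error that the fit reports. Calls needed an FDR no higher than 10%, a 1.5-fold or larger change, and more than 7 normalized counts on average in uninjected, cMO, wild-type and het libraries. A gene seen in *t*/*t2* MO embryos alone cannot pass this mean. The difference from the KO was fitted jointly over 36 libraries. The frog was left out of the fit. It pairs the samples, since deviations from the group mean correlated at 0.367, 0.329 and 0.431 between libraries of the same frog and at -0.318 to -0.035 otherwise, and it was added as a replicate block in an alternative. Other alternatives were median-of-ratios scaling, DESeq2 1.42.0, other filters and thresholds, the 6 libraries alone, and leaving out frogs, crosses or libraries.

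The comparison, gene lists and rule for named genes were chosen with earlier results of these data known. Named were *t* and *t2*, the 10 largest rises and falls (symbol, mean count of at least 50, same sign in 3 frogs), up to 4 called members of each list with the largest changes and its most abundant member that was not called, and the 3 largest stage and KO differences each way with the list members called there, from which those that bear on a statement are printed. Cell type markers are named too. The counts of 1 list and some of its genes are not reported here. Figures were drawn with matplotlib under Python.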

Additional observations from a re-analysis of the deposited data

Results flagged for a closer look

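Each value here is a difference between the effects of 2 settings on the log2 scale, tested as a contrast within edgeR's quasi-likelihood fit and called at an FDR of at most 10% and 1.5-fold. No explanation of them was tested.

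Between stages, with stage 26 taken from stage 34, the *t*/*t2* MO effect against cMO differed by 5.12 for *avpr1a*, 2.38 for *emilin3*, 2.76 for *chadl*, 3.63 for *ankrd63*, 2.55 for *c8orf84*, 1.41 for *lox* and 2.03 for *c6orf192*, all less deeply lowered at stage 34. In the notochord the differences were 0.76 for *cav1* and 1.49 for *chrd*, and in the tailbud 2.27 for *wnt8a* and 1.14 for *cdx4*, both of which overlapped between the groups at stage 26. Of 25 genes of presomitic mesoderm and segmentation 3 were more deeply lowered at stage 34, with -2.78 for *msgn1*, -3.06 for *mespb* and -2.36 for *mespa*. Another 2 had a higher value at stage 34, and the median stage difference of the list was 0.12. Over all 17987 genes 282 had a lower and 378 a higher value. The calls of *msgn1* and *mespb* were lost when any 1 frog was left out, and that of *mespa* without frog E. Among muscle genes the differences were -1.14 for *myh4*, -5.35 for *des.2*, -4.39 for *acta1* and 0.59 for *myf5*. The difference was -3.47 for *hebp2* and -3.02 for *rgn*. It was 5.95 for *ankrd37* and 3.76 for *egln3*, which varied widely between frogs. Of these 22 genes 9 were called in every alternative. Those picked for their stage 26 effect lean towards a difference of the opposite sign, since that effect is subtracted.

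Between knockdown and knockout at stage 26, as the log2 fold change of *t*/*t2* MO against cMO minus that of KO embryos against their wild-type siblings, the targeted paralogs differed by 1.70 for *t* and 3.37 for *t2*. Genes raised against cMO differed by 3.40 for *fbp2*, 3.23 for *cdkn2b*, 2.92 for *hebp2* and 2.61 for *degs2*. For others of them the values were 2.38 for *reg4*, 2.29 for *kcnt1*, 1.84 for *mmp7* and 3.13 for *cps1*. They were picked by the comparison with cMO, which the difference contains, so their positive sign is not independent support. Genes of cell cycle control and cell death differed by 1.66 for *ccng1*, 1.27 for *plk2*, 1.06 for *fas*, 1.30 for *aen* and 0.82 for *cdkn1a*. Genes of defence and of myeloid cells differed by 2.80 for *c3ar1*, 1.45 for *c8a*, 1.34 for *irak4* and 1.62 for *cebpe*. The calls of *c3ar1* and *irak4* were lost in 6 and 5 of 12 alternatives, among them those without any 1 frog. The values were 1.15 for *dtymk*, 0.78 for *adsl*, 1.40 for *hoxc13* and 1.64 for *hoxa13*. In *c8a*, *irak4* and *dtymk* the cMO mean lay under the uninjected mean, and the *t*/*t2* MO mean did not exceed the uninjected one. For all these genes too the difference contains the effect against cMO. Negative differences were -1.98 for *psmf1*, -1.92 for *pnp* and -1.90 for *nt5dc1*. Of these 26 genes 15 were called in every alternative.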

How the results depend on the processing

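The 1076 lowered genes of *t*/*t2* MO against cMO stayed between 754 and 1281 over all alternatives, and the 451 genes of *t*/*t2* KO against wild-type between 333 and 635. Of 83 named genes called against cMO, 65 were called in all 17 alternatives, 18 were lost in some and 0 changed sign. At an FDR of at most 1% the comparison with cMO called 1122 genes, 368 of them raised, *t*/*t2* MO against uninjected 1233, cMO against uninjected 47, the stage difference 62 and the KO difference 197. DESeq2 called 197 genes for cMO against uninjected. The frog pairs the samples, and with it as a replicate block 2099 genes were called against cMO (880 raised, 1219 lowered), 253 for cMO against uninjected, 1229 for the stage difference and 872 for the KO difference. The 6 libraries alone with the block gave 2253. The block ended the call of no named gene against cMO and of 1 stage difference, *myf5*. Leaving out frogs or libraries gave 1229 to 1943 genes called against cMO, 451 to 808 raised and 778 to 1171 lowered. Leaving out a frog gave 59 to 163 for cMO against uninjected, 73 to 820 for the stage difference and, crosses included, 222 to 461 for the KO difference. In each of these the lowest was without frog E, and the cause was not tested. With 3 clutches a group and the frog left out of the main fit, small changes in genes that vary between clutches may not be called.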

Other observations

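Gene Ontology terms from the deposited annotation, chosen with earlier results of these data known, gave further groups in *t*/*t2* MO against cMO embryos, beside 4.01% raised and 5.98% lowered of all genes. Of 94 measured genes of somitogenesis 3 were raised and 15 lowered, of 111 of muscle contraction 8 and 18, and of 204 of heart development 8 and 17. The raised genes of somitogenesis numbered 6 without the cMO library of frog D, 5 without frog D and 1 without the *t*/*t2* MO library of frog F. Those of heart development numbered 4 without the cMO library of frog D or the *t*/*t2* MO library of frog E, 5 without the cMO library of frog E or without frog F, and 3 without frog E. Of 35 genes of the glycolytic process 1 was raised and 6 lowered, and *t*/*t2* KO embryos lowered 7 of them. The 6 were 3 without the cMO library of frog D or without the *t*/*t2* MO library of frog F, and the raised numbered 0 to 2 when frogs or libraries were left out. Of 165 genes of the immune response 15 were raised and 9 lowered, of 175 of the inflammatory response 15 and 9, and of 141 of the innate immune response 12 and 8. Without frog E, 7 genes of the inflammatory response were raised, and 7 genes of the innate immune response were raised and 4 lowered. Of 291 genes of the apoptotic process 6 were raised and 21 lowered. Of 162 genes of Notch signalling 2 were raised and 8 lowered, of 316 of chemical synaptic transmission 11 and 19, of 80 of RNA splicing 3 and 3, of 41 of cilium assembly 2 and 3, and of 32 of spinal cord development 2 and 4. In these last terms the lowered counts moved by no more than 1.5 times when frogs or libraries were left out. Raised counts other than that of RNA splicing moved more, to 1 or 4 for Notch signalling (1 without frog E or its *t*/*t2* MO library, 4 without frog D or its cMO library), to 4, 5 and 7 for synaptic transmission without frog E, the cMO library of frog E and frog F, to 1 for cilium assembly in 5 such alternatives, and to 4 for spinal cord development without the *t*/*t2* MO library of frog F. No test of any term was made.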
